A study of Homo sapiens with 18 samples.

Results

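Wild-type NIKS keratinocytes kept in interferon for 48 h were compared with untreated wild-type cells, with 3 libraries in each group and thus 6 of the 18 libraries of the study. The libraries were chosen by their labels alone. NIKS is a human keratinocyte line that grows without limit and still differentiates, and both groups are labelled wild type for SP100. Cells of every group grew in a serum medium with hydrocortisone, cholera toxin, epidermal growth factor, adenine and insulin, on lethally irradiated J2/3T3 mouse fibroblasts. The treated group received human interferon alpha 2a at 25 ng/mL for 48 h, and the untreated group (0 h) received none. Wild-type cells at 12 h of the same dose served to place the 48 h levels in time, and SP100 knockout cells at 0 and 48 h served for a single test of whether the response differed between genotypes. Column names give 1 line per genotype (Vec2 for wild type and KO5 for knockout), so genotype and line cannot be told apart. No untreated library at 48 h was analysed here, so effects of interferon and of the hours in culture cannot be told apart. Labels call the replicates biological without saying what separated them, so p-values measure the spread between these libraries.

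Type I interferons bind the receptor chains IFNAR1 and IFNAR2, whose kinases JAK1 and TYK2 phosphorylate STAT proteins. STAT2 and IRF9 are parts of the complex ISGF3, which binds the interferon-stimulated response element (ISRE) in promoters, while STAT pairs bind a different element, GAS. Interferon-stimulated genes encode antiviral effectors, sensors of viral nucleic acid, the machinery that presents peptides on HLA class I, and inhibitors of the pathway itself. Keratinocytes form the outer layer of the skin and are a target of papillomaviruses, which replicate in them.

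Promoter windows of several genes with large rises hold letters that match the core of the ISRE. The sequences below come from RefSeq promoter windows of build GRCh38.p14 and are written 5′ to 3′ along each gene's strand, with capitals on every match to GAAANNGAAA, the core of the ISRE, on either strand. They are shown for 4 genes that were higher at 48 h than at 12 h (IFI27, IFI6, BST2 and IFITM1) and 4 that were lower (MX1, IFIT1, ISG15 and RSAD2). The windows are chr14:94110613-94110665 for IFI27, chr1:27672261-27672322 (minus strand) for IFI6, chr19:17405730-17405775 (minus strand) for BST2, chr11:313985-314024 for IFITM1, chr21:41431839-41431878 for MX1, chr10:89392492-89392544 for IFIT1, chr1:1013369-1013414 for ISG15 and chr2:6877617-6877656 for RSAD2.
IFI27: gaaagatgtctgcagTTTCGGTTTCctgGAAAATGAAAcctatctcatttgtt
IFI6: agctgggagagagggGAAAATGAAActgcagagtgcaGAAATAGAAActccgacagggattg
BST2: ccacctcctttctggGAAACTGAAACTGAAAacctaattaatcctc
IFITM1: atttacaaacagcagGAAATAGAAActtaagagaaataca
MX1: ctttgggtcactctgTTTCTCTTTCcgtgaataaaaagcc
IFIT1: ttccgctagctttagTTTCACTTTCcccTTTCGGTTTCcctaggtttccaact
ISG15: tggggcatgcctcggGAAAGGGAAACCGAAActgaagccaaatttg
RSAD2: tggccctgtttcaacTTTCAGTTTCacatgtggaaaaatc

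The first match shown began 108 bases before an annotated start of IFI27, 115 before IFI6, 130 before BST2, 40 before IFITM1, 196 before MX1, 116 before IFIT1, 113 before ISG15 and 145 before RSAD2. IFI27, MX1 and RSAD2 have more than 1 window, and 1 window with a match was shown for each. The core was in 2 of 2 windows of IFI27, 2 of 3 of MX1 and 1 of 2 of RSAD2. IFI27, IFI6, BST2, IFIT1 and ISG15 each hold 2 matches in the stretch shown, and those of BST2 and ISG15 overlap. All 8 were shown because their windows hold the core, so they say nothing of how often it occurs in either set.

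Across genes, the ISRE-type core was common among the strongly raised genes. At least 1 RefSeq window (250 bases before to 50 after a start) was found for 94 of the 132 named genes that were called at least 2-fold higher at 48 h, and 54 of the 94 (57.45%) held the core. The share was 41 of 569 (7.21%) among genes called higher by less than 2-fold, 20 of 622 (3.22%) among genes called lower, and 380 of 9653 (3.94%) among all genes tested that had a window. Read on the coding strand alone, the shares were 30.85% of the 94 and 1.91% of all. More than 1 match in a window was found for 20 of the 94 genes and for 38 of the 9653. Matches in the 94 genes had a median position of -73.5 relative to the start, against -115 over all genes. The GAS-type core TTCNNNGAA, which reads the same on both strands, was in 23 of the 94 (24.47%) and in 798 of the 9653 (8.27%), and in 4 of the 23 it shared bases with an ISRE-type match. Of the 15 genes with the largest rise, 13 had a window and 11 of the 13 held the ISRE-type core; OAS1 and XAF1 did not in the windows searched. A match is a description of the letters and not evidence of binding.

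Of 13280 genes tested, 1702 (12.8%) passed an adjusted p of 0.05 at 48 h against 0 h in wild-type cells (limma, Benjamini-Hochberg over all genes). They comprised 866 higher genes (6.52%) and 836 lower genes (6.3%), and 3616 genes had an unadjusted p under 0.05. Changes are given as differences of log2(RPKM + 1), a scale that understates the change of weakly expressed genes. RPKM relates the reads of a gene to its length and to the reads of the library. Most called changes were small: 66.7% of the higher genes and 82.3% of the lower genes moved by less than 0.5, with medians of 0.33 and -0.31. A change of at least 2-fold was called for 138 higher genes (1.04% of those tested) and 19 lower genes (0.143%), and 22 of the higher genes exceeded 16-fold while 0 of the lower did. Among the 138 genes, 43 reached the filter on low values (3 or more libraries at 1 RPKM or above) only through interferon-treated libraries. In bulk RNA, fewer cells of a type and less RNA per cell cannot be told apart.

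**Figure D1:**
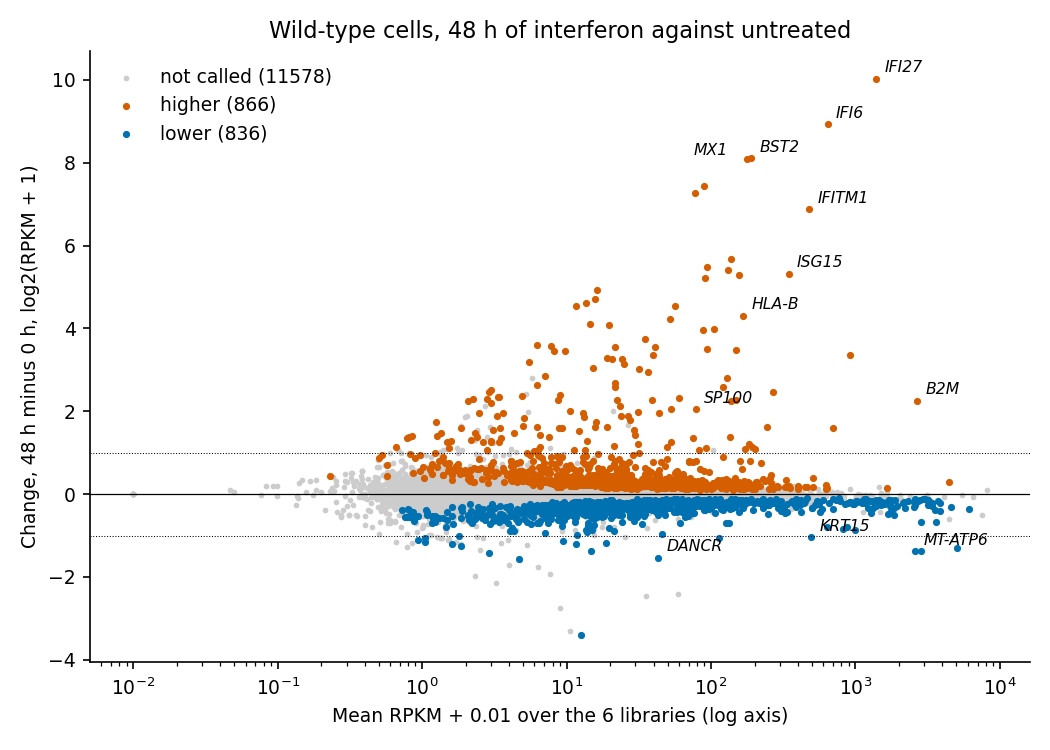
Each point is a gene, with its mean RPKM over the 6 libraries (log axis) and its change at 48 h against 0 h on the log2(RPKM + 1) scale; orange and blue mark the 866 higher and 836 lower genes. IFI27 leads the rises at 10.03, and the lower genes lie closer to the zero line, with SNORA40 lowest at -3.39.

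The 138 genes together made up 0.438 ± 0.009% of the summed RPKM of a library in untreated cells (SD, n = 3), 2.878 ± 0.012% at 12 h and 3.257 ± 0.08% at 48 h. They were chosen by the 48 h change, so these shares describe the size of the response. Replicates correlated across genes with r of 0.9873 to 0.9894 in the untreated and 0.9887 to 0.9889 in the 48 h group. Depth relative to untreated replicate 1, read from the steps of the low values, was 0.77 and 0.95 in the other untreated libraries and 0.84 to 1.06 in the 48 h libraries. Total reads per library are unknown, so counting error cannot be given. All 9 keratinocyte markers were at or above 1 RPKM, summing to 15762 to 16392 RPKM in untreated and 16057 to 16757 RPKM in 48 h libraries. Of 12 fibroblast markers 4 were in the table, summing to 7.28 to 9.48 and 6.24 to 7.19 RPKM, and COL1A2, COL3A1, PDGFRA and DCN were among the 8 not analysed here. Of 10 leukocyte markers 2 were in the table, with sums of 4.28 to 6.08 and 2.06 to 3.84 RPKM. Melanocyte markers (2 of 7 in the table) summed to 1.8 to 2.34 and 1.43 to 2.1 RPKM, and the 6 endothelial markers were not analysed here.

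SP100 (ENSG00000067066), a component of PML nuclear bodies and the gene disrupted in the other line, was higher at 48 h in interferon than untreated. Untreated wild-type libraries held 30.1, 31.9 and 27.9 RPKM and the 48 h libraries 127, 124 and 131 RPKM. The groups did not overlap, where 15.8% of all genes tested were higher at 48 h without overlap. The change of SP100 was 2.05 (SE 0.059, adjusted p = 8.42e-14). Knockout libraries, which check the labels, held 16, 14.2 and 15.2 RPKM untreated and 59.5, 57.4 and 62.4 RPKM at 48 h, below every wild-type library of the same time but not at 0. The wild-type level at 12 h was higher, at 155.5, 172 and 151 RPKM, and the fall of 0.32 from 12 to 48 h passed the test (adjusted p = 0.00057). SP100 has neighbouring relatives with similar sequence, so reads shared with them are uncertain.

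IFI27 (ENSG00000165949), which encodes a small mitochondrial membrane protein, had the largest rise of all. Its untreated libraries held 1.58, 2.75 and 0.92 RPKM, and its 48 h libraries 2604, 2812 and 2923 RPKM. By mean RPKM it went from rank 11547 of the 16472 genes in the table to rank 29. The change was 10.03 (SE 0.183, adjusted p = 1.67e-16). IFI6 (ENSG00000126709), a relative of IFI27, went from 2.0, 1.49 and 1.38 to 1249, 1323 and 1269 RPKM. It moved from rank 11680 to rank 90, a change of 8.94 (SE 0.0722, adjusted p = 2.85e-21). Both genes thus stood at 2.75 RPKM or less in every untreated library and were among the 100 most abundant mRNAs at 48 h.

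The antiviral effectors rose together. Of the 30 listed genes whose products act directly on viruses, 30 passed the filter, 7 of them only through interferon-treated libraries, and 30 were higher and 0 lower at 48 h. Their median change was 3.27, against -0.003 over all genes tested, of which 6.52% were called higher. BST2 (ENSG00000130303), or tetherin, which holds budding virions at the cell surface, went from 0.53, 0.15 and 0.47 to 363, 398 and 378 RPKM (change 8.11, SE 0.107, adjusted p = 2.14e-18). MX1 and MX2 encode dynamin-like GTPases that trap viral capsids or nucleoproteins. MX1 was at 0.41, 0.22 and 0.32 RPKM before and 364, 357 and 348 RPKM after 48 h (change 8.09, SE 0.045, adjusted p = 3.45e-23). MX2 was listed at 0.02, 0 and 0 RPKM before and stood at 157, 152 and 154 RPKM after 48 h. For each of these 3 genes the lowest treated library was far above the highest untreated one.

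IFITM proteins sit in membranes and block the fusion of viral envelopes. IFITM1 rose from 7.85, 5.54 and 7.85 to 905, 997 and 936 RPKM (change 6.89, SE 0.0872, adjusted p = 1.27e-18). IFITM3 was already abundant in untreated cells, at 157, 164 and 164 RPKM, and reached 1737, 1702 and 1586 RPKM (change 3.37, adjusted p = 1.61e-17). IFITM2 went from 82.1, 82.4 and 80.3 to 447, 471 and 445 RPKM (change 2.46). None of the 3 genes overlapped between the groups, where 15.8% of all genes tested were higher without overlap. The 3 genes are related in sequence, and the division of any shared reads among them is uncertain.

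IFIT proteins bind foreign RNA, and the OAS enzymes make the second messenger that activates RNase L. IFIT1 rose from 5.15, 3.86 and 3.94 to 269, 277 and 269.6 RPKM (change 5.69, SE 0.0794, adjusted p = 4.17e-18). IFIT3 rose from 5.82, 5.07 and 4.41 to 242, 269 and 259.8 RPKM (change 5.41). OAS1 rose from 3.65, 3.56 and 2.35 to 185, 188 and 184 RPKM (change 5.49, SE 0.164, adjusted p = 1.39e-13), and OAS2 from 6.82, 6.3 and 7.63 to 295, 317 and 312 RPKM (change 5.29). In all 4 the treated libraries lay within a narrow band well above the untreated ones. RSAD2, or viperin, which makes a chain-terminating nucleotide, was at 0.52, 0.15 and 0.04 RPKM and reached 29.7, 32.6 and 30.6 RPKM (change 4.71, adjusted p = 5.84e-16). Its genomic neighbour CMPK2 went from 0, 0.03 and 0.07 to 22.4, 25.1 and 21.8 RPKM (change 4.54).

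**Figure D2:**
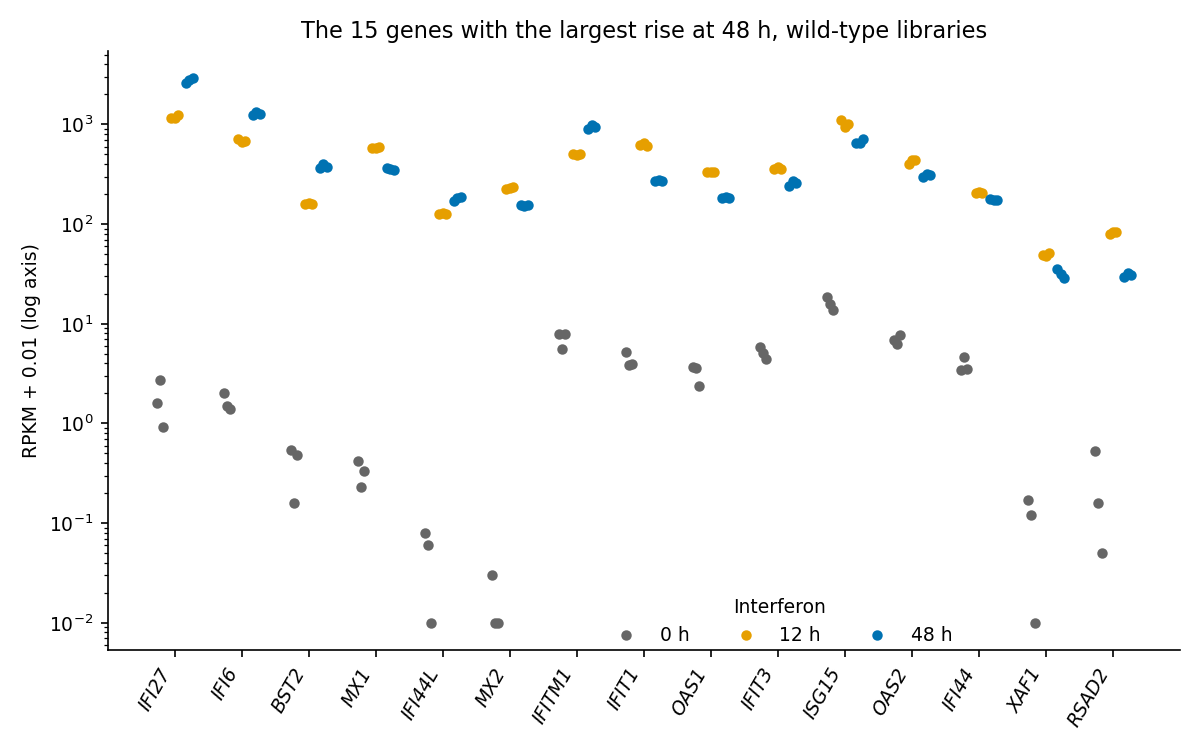
RPKM + 0.01 on a log axis for the 15 genes with the largest rise at 48 h, with each of the 3 wild-type libraries at 0 h (grey), 12 h (orange) and 48 h (blue). All treated libraries lie above all untreated ones, and IFI27, IFI6, BST2, IFI44L and IFITM1 are higher at 48 h than at 12 h while the other genes are lower or, for IFI44, not distinguished by the test.

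Other interferon-induced genes formed a further list. Of 22 listed, 20 passed the filter, 7 only through treated libraries, and 19 were higher and 0 lower (median 2.05). Of all genes tested, 6.52% were called higher. IFI44L, a paralogue of IFI44, was at 0.07, 0.05 and 0 RPKM untreated and 172, 181.5 and 186 RPKM at 48 h (change 7.44). IFI44 itself went from 3.39, 4.66 and 3.47 to 180.0, 176 and 176 RPKM (change 5.21), and XAF1, an antagonist of inhibitors of apoptosis, from 0.16, 0.11 and 0 to 35.7, 31.7 and 29 RPKM (change 4.92). TYMP, which degrades thymidine, rose from 4.07, 3.33 and 3.61 to 105, 108 and 112 RPKM (change 4.55). In each of these 4 genes the groups were separated, where 15.8% of all genes tested were higher without overlap.

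The ubiquitin-like protein ISG15 and its enzymes rose as a set. Of the 7 genes 7 were higher (median 3.27), where 6.52% of all genes tested were called higher. ISG15 (ENSG00000187608) rose from 18.5, 15.7 and 13.6 to 655, 649.7 and 715 RPKM (change 5.32, SE 0.118, adjusted p = 2.14e-15). UBE2L6, the conjugating enzyme, rose from 14.5, 14.3 and 14.1 to 173, 179.7 and 165 RPKM (change 3.51), and the ligase HERC5 from 2.37, 1.98 and 2.23 to 14.3, 16.8 and 16 RPKM (change 2.39). USP18, which removes ISG15 from its targets and blocks the receptor, went from 1.28, 1.36 and 1.26 to 38.6, 36.6 and 38.6 RPKM (change 4.08, adjusted p = 4.04e-19). All 7 were lower at 48 h than at 12 h, where 11.3% of all genes tested were called lower.

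Within the receptor pathway, STAT2 and IRF9 rose and the upstream parts did not pass the test. STAT2 went from 12, 11.3 and 9.21 to 43.2, 43.5 and 41.2 RPKM (change 1.89), and IRF9 from 5.81, 6.31 and 6.24 to 72.6, 76.9 and 68.2 RPKM (change 3.37). IFNAR1, IFNAR2, JAK1 and TYK2 changed by 0.04, -0.15, -0.05 and -0.05, with adjusted p from 0.298 to 0.786. So 3 of the 7 genes of this list were higher and 0 lower. For this list and those below in this paragraph, the shares called over all genes tested were 6.52% higher and 6.3% lower. The regulatory factor IRF7, which drives interferon genes, rose from 0.42, 0.43 and 0.77 to 16.8, 15.4 and 15.3 RPKM (change 3.46), and IRF1 from 9.86, 9.12 and 10.2 to 15, 16 and 14.6 RPKM (change 0.59). Of 6 IRF genes tested out of 8 listed, 4 were called higher, but without replicate 1, 2 or 3 of the untreated group, or replicate 2 or 3 at 48 h, the count was 2. Among 9 feedback inhibitors tested of 10 listed, USP18 was called higher and the phosphatase PTPN1 lower (change -0.12, adjusted p = 0.0335). The PTPN1 call was lost without any 1 untreated library or without replicate 1 or 2 at 48 h, and with a replicate block. The SOCS genes tested, SOCS2 and SOCS3, did not pass. Of the list of type I and III interferons and their receptors, the receptor chains IFNLR1 and IL10RB were tested and did not pass.

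Sensors of foreign nucleic acid followed the effectors. Of 14 listed, 12 were tested (2 only through treated libraries), and 8 were higher and 0 lower with a median of 1.22. Over all genes tested, 6.52% were called higher. RIGI, which detects viral RNA ends, rose from 4.81, 3.98 and 4.29 to 100.0, 101 and 99.2 RPKM (change 4.24, adjusted p = 1.75e-18), and IFIH1 (MDA5) from 3.03, 2.27 and 2.52 to 40.2, 40.5 and 41.8 RPKM (change 3.54). The kinase EIF2AK2 (PKR) rose from 19.4, 20.3 and 19.7 to 86.7, 82.1 and 86.6 RPKM (change 2.05). The adaptor MYD88 rose by 0.96 and the endosomal receptor TLR3 by 1.55. STING1, CGAS, MAVS and AIM2 did not pass.

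HLA class I genes and their regulators were higher in all 7 tested of 8 listed (median 2.36). The share called higher over all genes tested was 6.52%. B2M (ENSG00000166710), the invariant light chain of HLA class I, went from 933, 907 and 920.5 to 4218, 4497 and 4488 RPKM, a 4.78-fold rise in RPKM (change 2.26, SE 0.0437, adjusted p = 3.63e-16), and from rank 131 to rank 7. HLA-B rose from 14.7, 13.5 and 17.2 to 296, 329 and 325 RPKM (change 4.31, SE 0.0667, adjusted p = 1.63e-17). HLA-C rose from 31.4, 35.1 and 34.7 to 195, 211 and 218 RPKM (change 2.59). The class I genes are close in sequence and highly variable, so the division of reads among them is uncertain. NLRC5, the transactivator of class I genes, rose from 1.01, 0.96 and 0.8 to 8.51, 9.3 and 8.74 RPKM (change 2.36). HLA class II could not be described: of 12 listed genes 1 was tested, HLA-DOB, which did not pass.

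The peptide supply rose as well, with 12 of 14 genes higher and 0 lower (median 0.72). TAP1, a subunit of the transporter that loads peptides, rose from 16.4, 17.8 and 17.1 to 68, 71.4 and 69.6 RPKM (change 1.97). The immunoproteasome subunits PSMB8 and PSMB9 rose from 22.1, 16.7 and 19.2 to 101, 102 and 99.1 RPKM (change 2.33) and from 6.09, 5.52 and 6.74 to 56.2, 62 and 52.6 RPKM (change 3.03). The third immunosubunit, PSMB10, was at 23, 24.8 and 28.8 RPKM in untreated cells and 27.7, 27.1 and 25.5 RPKM at 48 h, overlapping, with a change of 0.07 (adjusted p = 0.706). Of the constitutive proteasome core, 4 of 13 tested were higher with a median of 0.04, where 6.52% of all genes tested were called higher, and the count was 2 without untreated replicate 3 or without replicate 2 or 3 at 48 h.

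**Figure D3:**
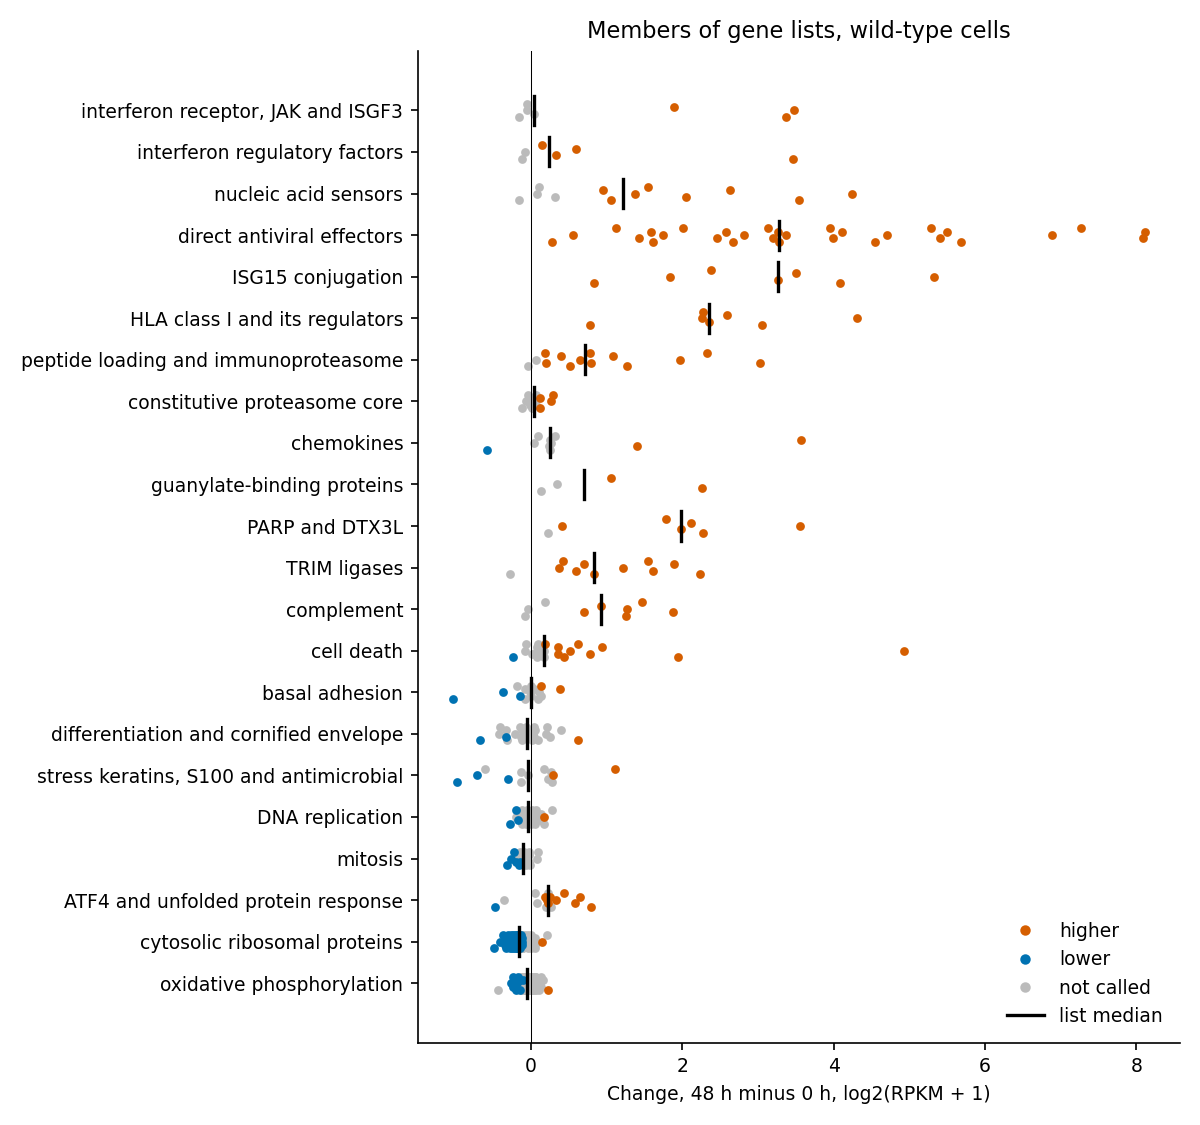
Each point is 1 tested gene of a list, placed by its change at 48 h against 0 h on the log2(RPKM + 1) scale and coloured by whether it was called higher, lower or not called; the black bar is the list median. Lists of interferon effectors, ISG15 conjugation and HLA class I lie to the right, while adhesion, differentiation and replication lists centre near 0 and cytosolic ribosomal proteins at -0.16.

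TRIM ubiquitin ligases had 10 of 11 higher and 0 lower (median 0.84), among them TRIM22, from 51.9, 42.4 and 47.8 to 216, 237 and 226 RPKM (change 2.24), and TRIM5, a restriction factor for retroviral capsids (change 1.22). Beside the counts of every list in this paragraph, 6.52% of all genes tested were called higher and 6.3% lower. PARP enzymes with DTX3L had 6 of 7 higher (median 1.99), led by PARP9 at 3.56. All 4 tested APOL genes of 6 listed were higher (median 1.74), 2 of them tested only through treated libraries. Of 4 guanylate-binding proteins tested among 7 listed, GBP1 (change 2.26) and GBP3 (change 1.07) were higher. Of 4 APOBEC3 genes tested among 7 listed, APOBEC3G was higher by 1.07 and APOBEC3C lower by 0.20. Complement genes had 6 of 9 higher (median 0.94), and 4 of the 9 were tested only through treated libraries. With a mean RPKM of at least 5 required, 1 complement gene was called. C3, the central complement component, rose from 1.74, 1.94 and 1.75 to 6.11, 7.16 and 7.11 RPKM (change 1.47).

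Of 22 cell death genes tested, 10 were higher and 1 lower (median 0.17), against 6.52% and 6.3% of all genes tested. The lower gene, BID, lost its call without untreated replicate 1 or 3 or any 1 replicate at 48 h. The death ligand TNFSF10 (TRAIL) rose from 5.12, 4.26 and 4.99 to 20.4, 21.1 and 22.4 RPKM (change 1.95), while TNFRSF10D, a decoy receptor for it, fell from 15.9, 16.4 and 17.5 to 6.82, 6.62 and 6.39 RPKM (change -1.21, SE 0.0581, adjusted p = 1.21e-10). The death receptors TNFRSF10A and TNFRSF10B did not pass. CASP1, which matures IL-1 beta, rose by 0.78, and BIRC3, an inhibitor of apoptosis, by 0.94. Among immune ligands, LGALS9 rose from 0.07, 0.18 and 0.17 to 30.4, 26.1 and 25.1 RPKM (change 4.62), and MICA, a ligand of the receptor NKG2D, rose by 0.46. CD274, which encodes PD-L1, did not pass at 2.06 ± 0.567 against 2.22 ± 0.193 RPKM (SD, n = 3). Of 7 tested genes of the IL-1 family and cytokines among 17 listed, IL1A was called, from 44.7, 46.5 and 47.6 to 65.3, 64.5 and 70.5 RPKM (change 0.52). In total 3 of the 7 were higher (IL1A, IL1B and IL1RN), and 1 without replicate 3 at 48 h.

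PML nuclear bodies and the HIRA histone chaperone gave 6 higher and 1 lower of 16 tested (median 0.13), where 6.52% and 6.3% of all genes tested were called. PML, the scaffold of these bodies, rose from 29.4, 28.6 and 28.7 to 52.4, 47.4 and 51.5 RPKM (change 0.78, adjusted p = 1.48e-07), and the SP100 relatives SP110 and SP140L by 2.95 and 0.89. DAXX, ATRX and HIRA did not pass.

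The 48 h response was set directly against the 12 h response. The libraries at 48 h and 12 h differed in 4772 genes (35.9% of those tested), 3267 higher (24.6%) and 1505 lower (11.3%) at 48 h. The split depended on scaling: 68.5% of the calls were higher, and 47.4% with median-of-ratios scaling, which removed a median shift of 0.079. Of the 30 direct antiviral effectors, 22 were lower at 48 h than at 12 h under both scalings, and 6 were higher, or 4 after scaling. The 4 were IFITM1, IFITM2, IFITM3 and BST2. BST2 went from 158, 162 and 161 to 363, 398 and 378 RPKM (change 1.24, adjusted p = 4.71e-07). IFI27 went from 1155, 1167 and 1249 RPKM at 12 h to 2604 or more at 48 h (change 1.22, adjusted p = 9.68e-05). HLA-B rose by a further 1.14, B2M by 0.79 and HLA-C by 0.46, with adjusted p from 3.44e-09 (B2M) to 3.63e-05 (HLA-C) and with the same direction after scaling. HLA-E and NLRC5, in contrast, were lower at 48 h than at 12 h, by -0.32 and -0.96.

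CXCL10, CXCL11, ISG20, MMP13 and SECTM1 had the largest falls from 12 h among the genes called higher at 48 h than at 0 h. CXCL10, a chemokine that attracts T cells through CXCR3, stood at 0.28, 0.19 and 0.2 RPKM untreated, at 139, 151 and 132 RPKM at 12 h, and at 1.79, 3.05 and 2.01 RPKM at 48 h. Its change from 12 to 48 h was -5.45 (adjusted p = 3.4e-14), and it remained above the untreated level by 1.41 (adjusted p = 1.93e-07). CXCL11, which shares that receptor, was at 332, 361 and 321 RPKM at 12 h and at 13, 18.1 and 14.5 RPKM at 48 h (change -4.39). ISG20, an exonuclease, fell by 2.37 over the same interval, MMP13, a collagenase, by 2.19, and SECTM1 by 1.71. Of 10 chemokines tested among 18 listed, 2 were higher at 48 h than at 0 h (CXCL10 and CXCL11) and 1 lower (CXCL14). Over all genes tested, 6.52% were called higher and 6.3% lower in that comparison. Among the 10 chemokines, 6 reached the filter only through treated libraries.

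**Figure D4:**
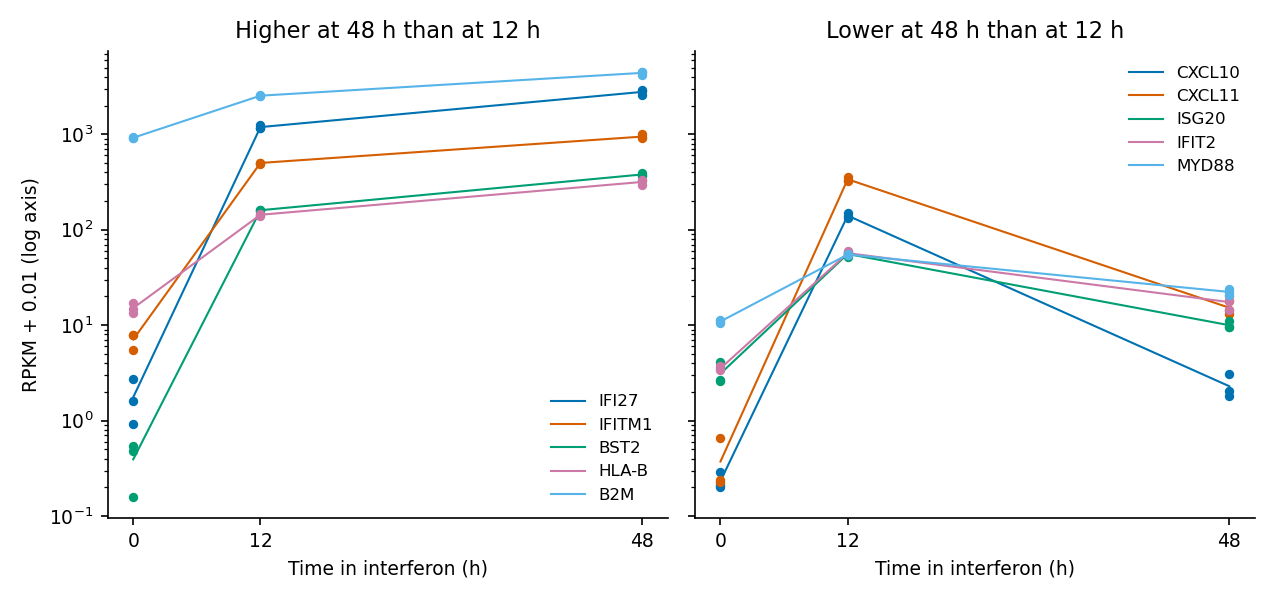
RPKM + 0.01 on a log axis against hours in interferon for wild-type libraries; points are the 3 libraries and lines join the group means. In the left panel IFI27, IFITM1, BST2, HLA-B and B2M are higher at 48 h than at 12 h, and in the right panel CXCL10, CXCL11, ISG20, IFIT2 and MYD88 are lower, with CXCL10 falling from 139, 151 and 132 RPKM to 1.79, 3.05 and 2.01 RPKM.

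HCP5, CLDN1, ASNS and CHAC1 were among the genes with the largest rises from 12 to 48 h of those called higher at 48 h. At 12 h against 0 h, 5964 genes (44.9%) were called, 2005 higher (15.1%) and 3959 lower (29.8%), and that comparison shares its untreated libraries with the 48 h comparison. This split also depended on scaling: with median-of-ratios scaling 2835 genes were called higher and 2764 lower at 12 h. HCP5, a transcript within the HLA class I region, went from 0.49, 0 and 0.1 through 1.14, 1.49 and 1.17 to 5.7, 6.39 and 5.18 RPKM. CLDN1, a tight junction protein, ASNS, which makes asparagine, and CHAC1, which degrades glutathione, were lower at 12 h than at 0 h and higher at 48 h than at 0 h. CLDN1 was at 9.91, 7.86 and 9.61, then 5.8, 5.57 and 6.14, then 16.3, 20.5 and 18.1 RPKM. ASNS was at 31.8, 27.3 and 28.6, then 14.8, 14.7 and 16, then 40.8, 48 and 44.2 RPKM. Their changes from 0 to 48 h were 0.93 (CLDN1), 0.58 (ASNS) and 0.80 (CHAC1).

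ASNS and CHAC1 belong to the genes of ATF4 and the unfolded protein response. Of these 16 genes, 9 were higher and 1 lower at 48 h against 0 h (median 0.23), where 6.52% and 6.3% of all genes tested were called. The higher genes included ATF4 itself, a transcription factor of amino acid shortage, from 225, 239.8 and 248 to 279.6, 282 and 292 RPKM (change 0.26), the cystine carrier SLC7A11 (change 0.66) and the serine synthesis enzymes PSAT1 (change 0.44) and PHGDH (change 0.24). The chaperone HSPA5 did not pass. SLC7A11 was at 4.76 ± 0.163 RPKM untreated, 2.61 ± 0.117 at 12 h and 8.1 ± 0.76 at 48 h (SD, n = 3), so its 12 h level lay below both others.

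Among the largest falls at 48 h were non-coding transcripts and mitochondrially encoded mRNAs. DANCR, a long non-coding RNA that hosts small nucleolar RNAs, fell from 66.4, 64.1 and 62.2 to 21.9, 23.2 and 19.5 RPKM (change -1.54, SE 0.0614, adjusted p = 8.9e-12). DLGAP1-AS1 fell from 9.13, 6.66 and 6.85 to 1.67, 2.11 and 1.82 RPKM (change -1.57, adjusted p = 0.000194). SNORA40, a small nucleolar RNA, was at 37.9, 27 and 5.59 RPKM in untreated cells and 4.66, 0.05 and 0.04 RPKM at 48 h, and its call (change -3.39, adjusted p = 0.0287) was lost in 5 of 13 alternative fits. ACO1, a cytosolic aconitase that also binds iron-responsive RNA elements, fell from 22.1, 21.3 and 21.4 to 7.47, 7.33 and 8.53 RPKM (change -1.37, adjusted p = 1.86e-11). FADS3, of the fatty acid desaturase family, fell by 1.17, and GEM, a small GTPase, by 1.20.

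Mitochondrially encoded mRNAs were made a list after their values had been seen. Of the 13, 9 were lower and 0 higher at 48 h against 0 h (median -0.78), where 6.3% of all genes tested were called lower. The groups did not overlap for 10 of the 13, where 16.8% of all genes tested were lower without overlap. MT-ATP6 (subunit of ATP synthase) was at 3670.1, 3868 and 3599 RPKM in untreated cells and 2043, 1417 and 995 RPKM at 48 h (change -1.38, SE 0.203, adjusted p = 0.000191). MT-CO3, a subunit of cytochrome oxidase, was at 4184, 4196 and 3807 RPKM in untreated cells and 2079, 1551.5 and 1189 RPKM at 48 h (change -1.37, adjusted p = 4.25e-05). MT-CO2, MT-ND1 and MT-ND2 overlapped between the groups. Summed over the 13 mRNAs, the share of all RPKM was 6.19%, 6.44% and 5.94% in the untreated libraries, 5.58%, 3.81% and 5.05% at 12 h and 5.01%, 3.59% and 2.76% at 48 h. Replicate 3 at 48 h was the lowest, and without it the changes of MT-ATP6 and MT-CO3 were -1.12 and -1.18 and 6 of the 13 were called. Without untreated replicate 2 the count was also 6, and without replicate 1 at 48 h it was 13. SP100 knockout libraries held 4.27% to 4.9% at 0 h and 3.48% to 5.04% at 48 h, and the groups overlapped. A difference between genotypes in the 48 h change passed the interaction test for 0 of the 13 mRNAs (differences from 0.44 for MT-ND3 to 0.75 for MT-CYB, adjusted p from 0.714 to 0.823). Of the mitochondrial ribosomal RNAs, MT-RNR1 changed by 0.19 at 48 h against 0 h (adjusted p = 0.387). Its level was higher at 12 h than at 0 h (change 1.67, adjusted p = 5.55e-08). From 12 to 48 h its change was -1.48 (adjusted p = 5.27e-07). MT-RNR2 changed by -0.50 at 48 h against 0 h (adjusted p = 0.0171). That call was lost without untreated replicate 1 or 2 or replicate 2 or 3 at 48 h (adjusted p from 0.0545 to 0.0858). At 12 h against 0 h MT-RNR2 did not pass (change 0.25, adjusted p = 0.127). Nuclear genes of oxidative phosphorylation gave 10 lower and 1 higher of 81 tested (median -0.05), where 6.3% of all genes tested were called lower. Between 2 and 7 of these nuclear genes were lower when any 1 of the 6 libraries was left out.

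**Figure D5:**
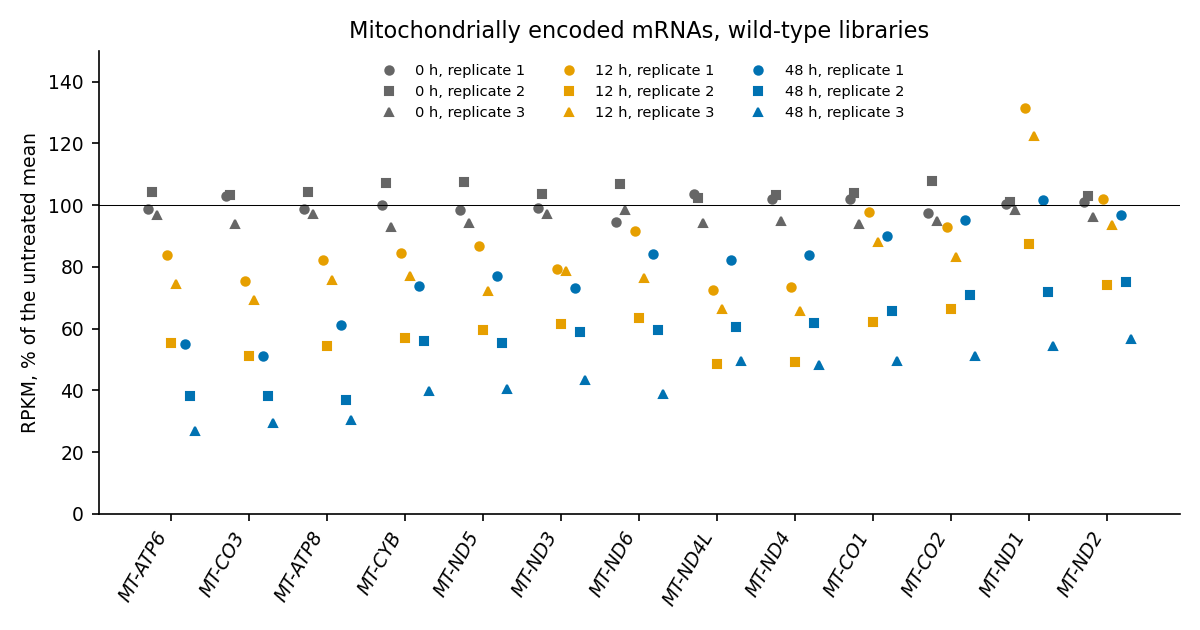
RPKM of the 13 mitochondrially encoded mRNAs as a percentage of the untreated mean, by library (marker shape) and time (colour). The 48 h libraries spread widely, with replicate 3 lowest for each mRNA and replicate 1 highest, and MT-ATP6, MT-CO3 and MT-ATP8 show the lowest percentages.

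Cytosolic ribosomal proteins were lower by small amounts in many genes: 51 of 83 lower and 1 higher (median -0.16), against 6.3% of all genes tested called lower. RPLP0, of the ribosomal stalk, went from 1982, 1943 and 1911 to 1333, 1439 and 1394 RPKM (change -0.49, adjusted p = 1.36e-07), and RPS3A from 2097, 1948 and 1973 to 1412, 1619.7 and 1516 RPKM (change -0.41). The number of lower genes was 35 to 54 when 1 library was left out and 49 after median-of-ratios scaling. These genes have many processed pseudogenes, which can share their reads.

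Of 10 keratinocyte identity genes 1 was higher (DSG3) and 0 lower (median -0.04), near the 6.52% of all genes tested called higher, and DSG3 lost its call without untreated replicate 2 or without replicate 2 or 3 at 48 h. KRT5, the basal keratin, was at 7849 ± 78.8 RPKM untreated and 8428 ± 144 at 48 h (SD, n = 3; change 0.10, adjusted p = 0.0763). Basal adhesion genes gave 2 higher and 3 lower of 15 tested, or 1 to 3 higher and 2 to 3 lower with 1 library left out. KRT15, a keratin of basal and stem-like keratinocytes, fell from 757, 569 and 653 to 263, 376 and 330.2 RPKM (change -1.03, SE 0.165, adjusted p = 0.000438), and the hyaluronan receptor CD44 from 642, 655 and 672 to 526, 503 and 498 RPKM (change -0.37). COL17A1, a hemidesmosome collagen, rose by 0.38. Differentiation and cornified envelope genes gave 1 higher and 2 lower of 26 tested among 33 listed (median -0.05), near the 6.52% and 6.3% of all genes tested. With 1 library left out these counts were 1 to 2 and 1 to 3. TGM1, which crosslinks the envelope, rose by 0.63 and the protease KLK5 fell by 0.67.

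Of 13 stress keratins, S100 and antimicrobial genes tested among 16 listed, 2 were higher and 3 lower (median -0.04), where 6.52% and 6.3% of all genes tested were called. KRT6B rose from 56.1, 58.9 and 59.5 to 138, 119 and 126 RPKM (change 1.12, adjusted p = 1.79e-08), and its near-identical relative KRT6A by 0.29, so reads shared between them are uncertain. The stress keratins KRT16 (change -0.04), KRT17 (0.17) and KRT6C (0.23) did not pass. S100A8 and S100A9, which form calprotectin, fell from 62.8, 64.2 and 56.6 to 26.5, 33.4 and 32.8 RPKM (change -0.97, adjusted p = 3.04e-06) and from 182, 163 and 155 to 91.2, 105 and 108 RPKM (change -0.71). Neither pair of groups overlapped, where 16.8% of all genes tested were lower without overlap.

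Cell cycle genes were mostly not called. Beside the counts of each list in this paragraph, 6.52% of all genes tested were called higher and 6.3% lower. DNA replication gave 1 higher and 3 lower of 28 (median -0.04), with 1 lower when untreated replicate 1 or 3 or replicate 2 at 48 h was left out. Mitosis gave 0 higher and 6 lower of 23 (median -0.10), and 2 to 5 lower with 1 library left out. CENPF, of the kinetochore, went from 38.9, 40.8 and 37.5 to 30.2, 30.9 and 32.6 RPKM (change -0.31, adjusted p = 0.0047). Of 11 CDK inhibitors and p53 targets tested, CDKN1A rose by 0.20 and GADD45A by 0.48, and the others did not pass; without replicate 1 at 48 h 4 passed. Among matrix and mesenchymal-type genes, 5 were higher and 4 lower of 16 tested. THBS1, a matrix glycoprotein, rose from 120.0, 135 and 129 to 299, 256 and 265 RPKM (change 1.08, adjusted p = 2.25e-10). VIM fell by 0.43, TNC by 0.77, MMP1 by 0.73 and PLAU by 0.39. The 5 higher became 2 without untreated replicate 1. Sterol and fatty acid synthesis gave 3 higher and 0 lower of 25 tested (median 0.04).

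Whether the 48 h response differed between genotypes was asked with 1 interaction test over wild-type and SP100 knockout cells. It called 11 genes (0.0828% of those tested), 9 with a larger rise in the knockout (0.0678%) and 2 with a smaller one (0.0151%), and 826 genes had an unadjusted p under 0.05. IFI44, ISG15, IFIT1, OASL and DDX60 had the largest differences. IFIT1 was at 4.32 ± 0.723 RPKM untreated and 272 ± 4.52 at 48 h in wild-type cells, and at 0.953 ± 0.231 and 218 ± 4.5 in the knockout (SD, n = 3), so that the 48 h levels were lower and the rise larger in the knockout. The count fell to 3 in a fit on the 12 libraries of this comparison alone, and to 7 without wild-type replicate 2 at 48 h.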

How the data were processed

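Libraries were made from total RNA with a stranded mRNA kit, per the labels' protocols. Cutadapt, STAR 2.6.1, RSEM 1.3.0, limma 3.50.3 and build hg19 are named in the submitters' processing notes, with no roles given. The authors deposited RPKM values for 16472 Ensembl genes, rounded to 2 decimals; the reads behind the total and the gene filter are not given in the sources used here. Symbols came from a gene table and matched 14576 IDs. RPKM values are not counts, so log2(RPKM + 1) was fitted with limma 3.58.1 in R 4.3.3 over all 18 libraries in 6 groups, with a variance trend, for the 13280 genes that reached 1 RPKM in 3 or more libraries. Each comparison had its own Benjamini-Hochberg adjustment over all of these genes, at 0.05. The fit was tested on simulated data. Named genes were SP100, the 15 largest rises and 10 largest falls with separated groups, the 5 largest rises and 5 largest falls after 12 h among raised genes, the 5 largest interactions and, for each list, the 2 members with the largest change and the 2 with the highest untreated level. Other list members and the mitochondrial genes were named after their values had been seen. Some genes that the rule names are not reported here. The comparison, lists and rules were chosen with earlier results of these data known. Promoter windows came from RefSeq GRCh38.p14, a different build from that of the values, so they were joined by symbol only. Alternatives were a pseudocount of 0.1, no filter, median-of-ratios scaling, a mean of 5 RPKM or more, the libraries of the comparison alone, no variance trend, a replicate block, and leaving out each library.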

Additional observations from a re-analysis of the deposited data

Results flagged for a closer look

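The rise over 48 h differed between SP100 knockout and wild-type cells for 11 genes, by the interaction test of limma (Benjamini-Hochberg over 13280 genes). Values are the change in the knockout minus the change in wild-type cells on the log2(RPKM + 1) scale. The difference was 1.3 for IFI44 (adjusted p = 0.00118), 1.18 for ISG15 (0.00579), 1.13 for IFIT1 (0.000215), 1.00 for OASL (0.00012), 0.94 for DDX60 (0.0174) and 0.90 for IFIT2 (0.00549). It was 0.69 for IFIT3 (0.00217), 0.54 for MX1 (0.00118) and 0.42 for IFITM3 (0.0393). It was negative for USP18, at -0.38 (0.0426), and for OAS2, at -0.56 (0.0159). For each gene with a positive difference except MX1, the untreated mean was lower in the knockout by more than both SDs added. MX1 stood at 0.317 ± 0.095 RPKM in untreated wild-type and 0.223 ± 0.0551 in untreated knockout cells, and after 48 h at 356 ± 8.09 and 482.5 ± 4.22 RPKM (SD, n = 3). Groups of 3 libraries were not tested for outlying samples.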

How the results depend on the processing

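The 1702 genes called at 48 h against 0 h became 1367 in a fit on the 6 libraries alone, and 1225 to 1336 when 1 library was left out. The 157 called with at least 2-fold became 203 with a pseudocount of 0.1 and 152 to 173 with 1 library left out. The count for 48 h against 12 h was 4772, and 3791 to 4574 with 1 library left out. The interaction count of 11 became 3 in the fit on its own libraries and 7 to 11 with 1 library left out; the causes were not tested. For the comparison of 48 h with 0 h, 37 of 38 named genes kept their direction and their call in all alternatives run, and SNORA40 lost its call in 5 of 13. That check did not cover the changes from 12 to 48 h or the interaction, for which some of these genes were named. DLGAP1-AS1, GEM, HCP5 and CHAC1 lie under a mean of 5 RPKM and have no value with that filter. Among 291 list members, named and mitochondrial genes called at 48 h against 0 h, 217 kept that call in every alternative, 74 lost it in at least 1 and 0 reversed. TYK2, which was not called at -0.05, was 0.006 without untreated replicate 3 and 0.028 without replicate 3 at 48 h, in a leave-one-out range of -0.12 to 0.028. With the replicate number as a block (replicate block) 1518 genes were called, 770 higher and 748 lower. The numbers are not known to pair libraries: deviations of same-numbered libraries correlated at -0.078 to -0.006, and 0 of the 3 libraries at 48 h correlated best with its own number. Reads per library are unknown, so the precision of low values could not be bounded.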
